A study of Mus musculus with 12 samples.

Results

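The interferon-stimulated genes are 47 genes chosen by symbol, all known in mouse or human cells to be raised by interferon. All 47 were found in the deposited table of 25230 genes, and all 47 were among the 11283 genes that reached at least 1 TPM (an abundance of transcripts scaled to gene length and to the library) in at least 3 libraries. They comprised 4 transcription factors, 5 sensors of nucleic acid, 20 antiviral effectors, 8 interferon-inducible GTPases, 2 genes of ISG15 conjugation and removal, the chemokine gene Cxcl10 and 7 other induced genes. Polyadenylated RNA was sequenced from mouse macrophages grown from bone marrow, and the series asks whether Piezo1, a mechanically gated cation channel, takes part in their response to the fungus Candida albicans. There were 12 libraries in 4 groups of 3, namely Piezo1 KO cells given C. albicans, Piezo1 KO cells given PBS, wild-type (WT) cells given C. albicans and wild-type cells given PBS. All 4 groups shared the same culture, 8 days in medium with M-CSF at 50 ng/ml. The labels give no dose of fungus, time of exposure, strain or age of mice, way of deletion or link of libraries to separate mice, so p-values measure the spread between these libraries, which may be technical.

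Type I interferons bind a receptor whose kinases phosphorylate STAT proteins. A complex that holds STAT2 and IRF9 then binds the interferon-stimulated response element (ISRE) in the promoters of target genes, while the gamma-activated site (GAS) serves mainly interferon gamma. Resting macrophages make a little interferon beta, which holds many of these genes at a tonic level, and fungal and bacterial ligands can raise it further.

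Promoters were read from RefSeq on GRCm38.p6, as windows of 300 bases that run from 250 before to 50 after a gene's start, and 37 of the 47 genes had an entry. The core of the ISRE, spelled GAAA, any 2 bases, GAAA, was searched on both strands with overlaps allowed, and 22 of the 37 genes (59.5%) held them, against 3.99% of all 27025 genes with a window and 3.44% of all 32851 windows. The core of the GAS, spelled TTCNNNGAA (N is any base), was in 11 of the 37 (29.7%), against 9.55% of all genes and 8.30% of all windows. A form of the kappaB site, spelled GGGA, any 2 bases, TTCC, was in 4 of the 37 (10.8%), against 1.63% of all genes and 1.47% of all windows. A match describes letters and is not a measured binding site. The window of Isg15 is shown because it held the most ISRE matches, 3. Those of Ifit1, Ifit3b and Bst2 are shown because, of the genes with 2 matches, they changed most with C. albicans in WT cells. Gbp3, Ifit3, Irgm1, Oas1a and Oas1g also had 2. ISRE matches are in capitals (either strand). The window of Irf1 was to be shown in any case, and its only match was a GAS, also in capitals. Ifi35 and Samhd1 likewise had a GAS as their only match. Isg15 is on the minus strand at chr4:156200769-156201068, Ifit1 on the plus strand at chr19:34640639-34640938, Ifit3b on the plus strand at chr19:34607707-34608006, Bst2 on the minus strand at chr8:71537423-71537722 and Irf1 on the plus strand at chr11:53769764-53770063. Each is written 5′ to 3′ in the direction of transcription.
Isg15: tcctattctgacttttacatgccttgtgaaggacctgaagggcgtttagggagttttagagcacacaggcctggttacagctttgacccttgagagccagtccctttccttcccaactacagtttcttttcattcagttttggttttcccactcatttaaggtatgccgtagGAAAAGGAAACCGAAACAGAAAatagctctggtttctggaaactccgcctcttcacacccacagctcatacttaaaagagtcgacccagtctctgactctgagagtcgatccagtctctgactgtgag
Ifit1: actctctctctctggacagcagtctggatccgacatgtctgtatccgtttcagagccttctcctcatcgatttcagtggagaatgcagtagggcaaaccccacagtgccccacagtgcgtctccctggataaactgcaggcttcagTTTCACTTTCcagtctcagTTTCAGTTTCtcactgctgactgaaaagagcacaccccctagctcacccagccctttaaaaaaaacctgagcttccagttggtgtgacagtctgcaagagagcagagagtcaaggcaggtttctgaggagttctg
Ifit3b: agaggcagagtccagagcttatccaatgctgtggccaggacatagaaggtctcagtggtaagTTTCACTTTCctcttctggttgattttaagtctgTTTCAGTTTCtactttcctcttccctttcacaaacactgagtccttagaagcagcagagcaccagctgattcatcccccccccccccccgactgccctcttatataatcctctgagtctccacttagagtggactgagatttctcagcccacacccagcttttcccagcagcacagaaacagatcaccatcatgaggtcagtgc
Bst2: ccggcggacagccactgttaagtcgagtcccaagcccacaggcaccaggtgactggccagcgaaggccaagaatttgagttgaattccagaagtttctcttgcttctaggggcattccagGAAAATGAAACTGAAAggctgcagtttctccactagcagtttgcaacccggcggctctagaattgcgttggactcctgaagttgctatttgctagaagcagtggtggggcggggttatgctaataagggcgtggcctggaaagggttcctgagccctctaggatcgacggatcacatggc
Irf1: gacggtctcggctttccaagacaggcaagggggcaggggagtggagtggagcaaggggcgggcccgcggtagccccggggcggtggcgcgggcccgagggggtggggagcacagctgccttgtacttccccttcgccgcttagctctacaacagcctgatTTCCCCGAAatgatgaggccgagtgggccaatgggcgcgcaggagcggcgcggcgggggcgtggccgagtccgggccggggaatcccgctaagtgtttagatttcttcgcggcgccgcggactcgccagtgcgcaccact
The 3 matches of Isg15 overlap in 1 run of capitals. Those of Ifit1 and Ifit3b are separate, and the 2 of Bst2 overlap.

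Reads in genes ranged from 16400119 to 25741091 per library, and the fewest reads behind any value of these 47 genes were 92, for Gbp5. Piezo1 had 64.6, 64.3 and 65.7 TPM in KO cells with C. albicans and 66.5, 62.4 and 67.5 TPM in KO cells with PBS, against 147, 132 and 132 TPM in WT cells with C. albicans and 130, 134 and 140 TPM in WT cells with PBS. The KO libraries thus lay below every WT library and still held reads of the gene. The 9 macrophage markers were all at 1 TPM or more, and their summed level ranged from 11113 to 11961 TPM over the 12 libraries. The 5 conventional dendritic cell markers summed to 0.988 TPM or less, the 5 stromal markers to 1.81 TPM or less, the 8 lymphocyte markers to 3.77 TPM or less, and the 5 erythroid markers were at 0. The 5 markers of plasmacytoid dendritic cells, a strong source of interferon, summed to between 19.9 and 28.3 TPM, of which Tcf4 made up nearly all, and Klk1 was at 0. The 3 KO libraries grouped as PBS by their treatment label carry DMSO in their titles, and a difference of vehicle cannot be told apart from the knockout effect with PBS, from the response in KO cells or from the difference of responses, which all use these libraries.

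In WT macrophages C. albicans raised 11 of the 47 genes and lowered 10. The genes that rose were Cxcl10, Gbp5, Irf1, Rsad2, Cmpk2, Ifi27l2a, Parp14, Ifit1, Ifit3b, Irgm2 and Ifih1. Those that fell were Irf7, Samhd1, Oas3, Bst2, Oasl2, Dhx58, Lgals3bp, Sp100, Zbp1 and Oas1a. A call here is an adjusted p under 0.05 (limma, Benjamini-Hochberg over all 11283 genes), and 16.1% of all genes tested rose and 28.3% fell by it. The median log2 fold change of the 47 genes was 0.10, against -0.07 over all genes tested. With libraries scaled by median-ratio factors 15 of the 47 rose and 7 fell, while 22.8% and 18.3% of all genes did. The count depended on WT C. albicans replicate 1: without it 28 of the 47 rose and 8 fell, against 16.7% and 31.3% of all genes, and the 28 included all 11 above. Without WT C. albicans replicate 2, without replicate 3 or without WT PBS replicate 3 the number that rose was 7 in each case. WT C. albicans replicate 1 was singled out because it was known to stand apart for these genes. Calls and p-values without it, here and below, show its weight and are no independent evidence of a response or of a knockout effect.

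**Figure D1:**
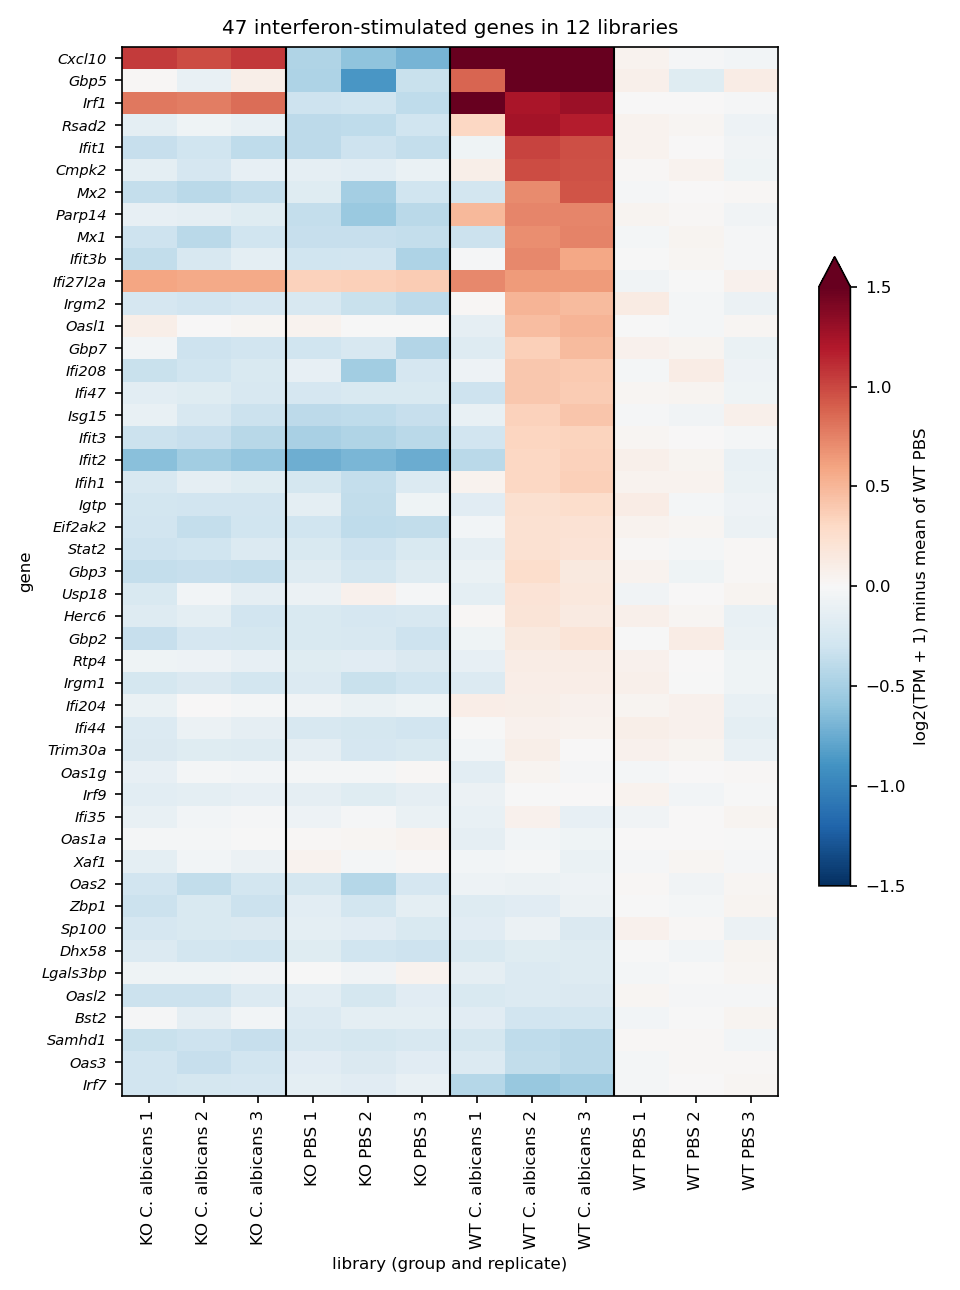
Level of each of the 47 interferon-stimulated genes (rows) in each of the 12 libraries (columns). Values are the log2(TPM + 1) difference from the mean of the 3 WT PBS libraries. Rows are ordered by the mean of WT C. albicans replicates 2 and 3. The color scale ends before the highest values of Cxcl10, Gbp5 and Irf1. WT C. albicans replicate 1 sits lower than replicates 2 and 3 for many rows, and most rows of both KO groups lie below 0.

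Among the transcription factors, Irf1, which is induced by NF-kappaB and by interferons, had 143, 114 and 118 TPM in WT cells with C. albicans, against 48.5, 48.3 and 47.5 TPM in WT cells with PBS. Every C. albicans library lay above every PBS library, and replicate 1 was the highest of them. The log2 fold change was 1.35 (adjusted p = 7.43e-09, SE 0.07). Irf7, the factor that amplifies type I interferon production, moved the other way, with 762, 690.1 and 712 TPM in WT cells with C. albicans and 1000.2, 1028 and 1042 TPM in WT cells with PBS. The groups did not overlap, and the log2 fold change was -0.51 (adjusted p = 1.61e-07, SE 0.03). Stat2, a subunit of the complex that binds the ISRE, had 61.8, 79.8 and 78.6 TPM in WT cells with C. albicans, against 68.6, 66.3 and 68.9 TPM with PBS. Replicates 2 and 3 were above and replicate 1 below all 3 PBS libraries, and the log2 fold change was 0.10 (adjusted p = 0.315, SE 0.08). Without replicate 1 it was 0.22 (adjusted p = 0.00142, SE 0.04). Irf9, the DNA-binding partner in that complex, had 103, 109 and 110.4 TPM in WT cells with C. albicans and 114, 107 and 109 TPM with PBS, and the log2 fold change was -0.03 (adjusted p = 0.507, SE 0.04).

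Cxcl10, a chemokine that attracts T cells and natural killer cells through CXCR3, showed the largest fold change of the 47. It had 83.5, 136 and 139 TPM in WT cells with C. albicans, against 20.9, 19.8 and 19.4 TPM with PBS. The groups did not overlap although replicate 1 was well below the other two, and the log2 fold change was 2.49 (adjusted p = 4.12e-08, SE 0.15). Gbp5, a guanylate-binding protein of the inflammasome and cell-autonomous defence, had 13.2, 24.3 and 25.8 TPM in WT cells with C. albicans and 7.204, 5.85 and 7.42 TPM with PBS. Its log2 fold change was 1.45 (adjusted p = 0.000115, SE 0.21), and again no libraries overlapped. Of the 8 GTPases, Gbp5 and Irgm2 rose and none fell, against 16.1% and 28.3% of all genes tested. The median log2 fold change of the 8 was 0.13. Irgm2, a regulator of the immunity-related GTPases on membranes, rose by 0.33 (adjusted p = 0.0232, SE 0.11) on the log2 scale, which was not past the threshold without WT C. albicans replicate 2 or 3 (adjusted p = 0.104 and 0.0965).

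Of the 20 antiviral effectors, Rsad2, Cmpk2, Ifit1 and Ifit3b rose, 5 fell and 11 did not pass the test. Over all genes tested 16.1% rose and 28.3% fell. Rsad2 (viperin), which makes a chain-terminating nucleotide, had 96.5, 185 and 176 TPM in WT cells with C. albicans, against 79.9, 79.00 and 73.1 TPM with PBS, and its log2 fold change was 0.91 (adjusted p = 0.00104, SE 0.17). Its neighbour on chromosome 12, the mitochondrial nucleotide kinase gene Cmpk2, had 32.9, 62.1 and 61.1 TPM in WT cells with C. albicans and 31.3, 32.2 and 29.5 TPM with PBS, and its log2 fold change was 0.67 (adjusted p = 0.00725, SE 0.17). For both genes every C. albicans library was above every PBS library, and replicate 1 lay just above the PBS range. Ifit1, which binds foreign RNA by its cap, had 56.7, 120.1 and 117 TPM in WT cells with C. albicans and 61.6, 59.2 and 56.8 TPM with PBS. Replicates 2 and 3 were above and replicate 1 was below all PBS libraries, and its log2 fold change was 0.64 (adjusted p = 0.0212, SE 0.20) over all libraries and 0.99 (adjusted p = 4.35e-09, SE 0.05) without replicate 1. The call was lost without replicate 2 or replicate 3 (adjusted p = 0.0961 and 0.0933). That of Ifit3b, at 0.43 (adjusted p = 0.0258, SE 0.14), was lost without WT C. albicans replicate 2 or 3 or any 1 of the WT PBS libraries (adjusted p of 0.0529 to 0.118). Isg15, the ubiquitin-like modifier, had 132, 182 and 189.9 TPM in WT cells with C. albicans, against 140.4, 138 and 149.9 TPM with PBS, and its log2 fold change was 0.22 (adjusted p = 0.114, SE 0.11). It showed the same split of the 3 C. albicans libraries as Ifit1.

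Mx1 and Mx2, dynamin-like GTPases that block viruses in the nucleus and cytoplasm, did not pass the test over all libraries. Mx1 had 20.2, 42.04 and 43.5 TPM in WT cells with C. albicans and 25.03, 26.2 and 25.2 TPM with PBS, and its log2 fold change was 0.38 (adjusted p = 0.147, SE 0.20). Mx2 had 5.72, 12.2 and 14.6 TPM in WT cells with C. albicans and 6.995, 7.13 and 7.25 TPM with PBS, and its log2 fold change was 0.46 (adjusted p = 0.115, SE 0.22). In both, replicate 1 was below all PBS libraries and replicates 2 and 3 above them. Without replicate 1 their log2 fold changes were 0.73 and 0.82 (adjusted p = 1.57e-07 and 3.23e-05). That library was left out because it stood apart for these genes, so these values are no independent evidence of a rise.

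A separate set of effectors was lower with C. albicans in every WT library. Samhd1, which hydrolyses deoxynucleotides, had 169, 155 and 154 TPM in WT cells with C. albicans, against 206, 206 and 197 TPM with PBS, a log2 fold change of -0.35 (adjusted p = 1e-05, SE 0.04). Bst2 (tetherin), which holds budding virus at the cell surface and was the most abundant of the 47 in WT cells with PBS, had 1416, 1308 and 1319 TPM in WT cells with C. albicans and 1546, 1595 and 1645 TPM with PBS, a log2 fold change of -0.24 (adjusted p = 0.000295, SE 0.04). Oas2, an oligoadenylate synthetase of the RNase L pathway, had 74.2, 73.5 and 74.5 TPM with C. albicans and 79.4, 75.6 and 80.1 TPM with PBS, and did not pass the test at -0.08 (adjusted p = 0.197, SE 0.05). In these 3 genes replicate 1 stood with replicates 2 and 3, below all PBS libraries. Of the 6 genes of the OAS family, Oas3 (-0.33), Oasl2 (-0.21) and Oas1a (-0.08) fell on the log2 scale, and Oas1a was at 0.00 with median-ratio factors. Of the 5 sensors, Ifih1 (MDA5), a receptor of long double-stranded RNA, rose by 0.24, while its relative Dhx58 (LGP2) fell by 0.20 and Zbp1, a sensor of Z-form nucleic acid, fell by 0.15 on the log2 scale. The Ifih1 call was lost without WT C. albicans replicate 2 or 3, or without WT PBS replicate 3 (adjusted p = 0.0911, 0.106 and 0.0975), and the Zbp1 call without WT C. albicans replicate 1 (adjusted p = 0.0523), among others.

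Of the 7 other induced genes, Ifi27l2a and Parp14 rose and Lgals3bp and Sp100 fell, against 16.1% and 28.3% of all genes tested. Ifi27l2a, a small hydrophobic interferon-induced protein, had 512, 484 and 484 TPM in WT cells with C. albicans, against 298, 308 and 325 TPM with PBS, and its log2 fold change was 0.67 (adjusted p = 1.07e-08, SE 0.03). Parp14, an ADP-ribosyltransferase, had 113, 134 and 135 TPM with C. albicans and 82.6, 81.4 and 77.4 TPM with PBS, and its log2 fold change was 0.65 (adjusted p = 9.02e-06, SE 0.07). Neither gene's groups overlapped. In the authors' deposited table for the same comparison 18 of the 47 genes were higher and 6 lower at an adjusted p under 0.05, against 18.6% and 14.1% of 13587 genes.

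**Figure D2:**
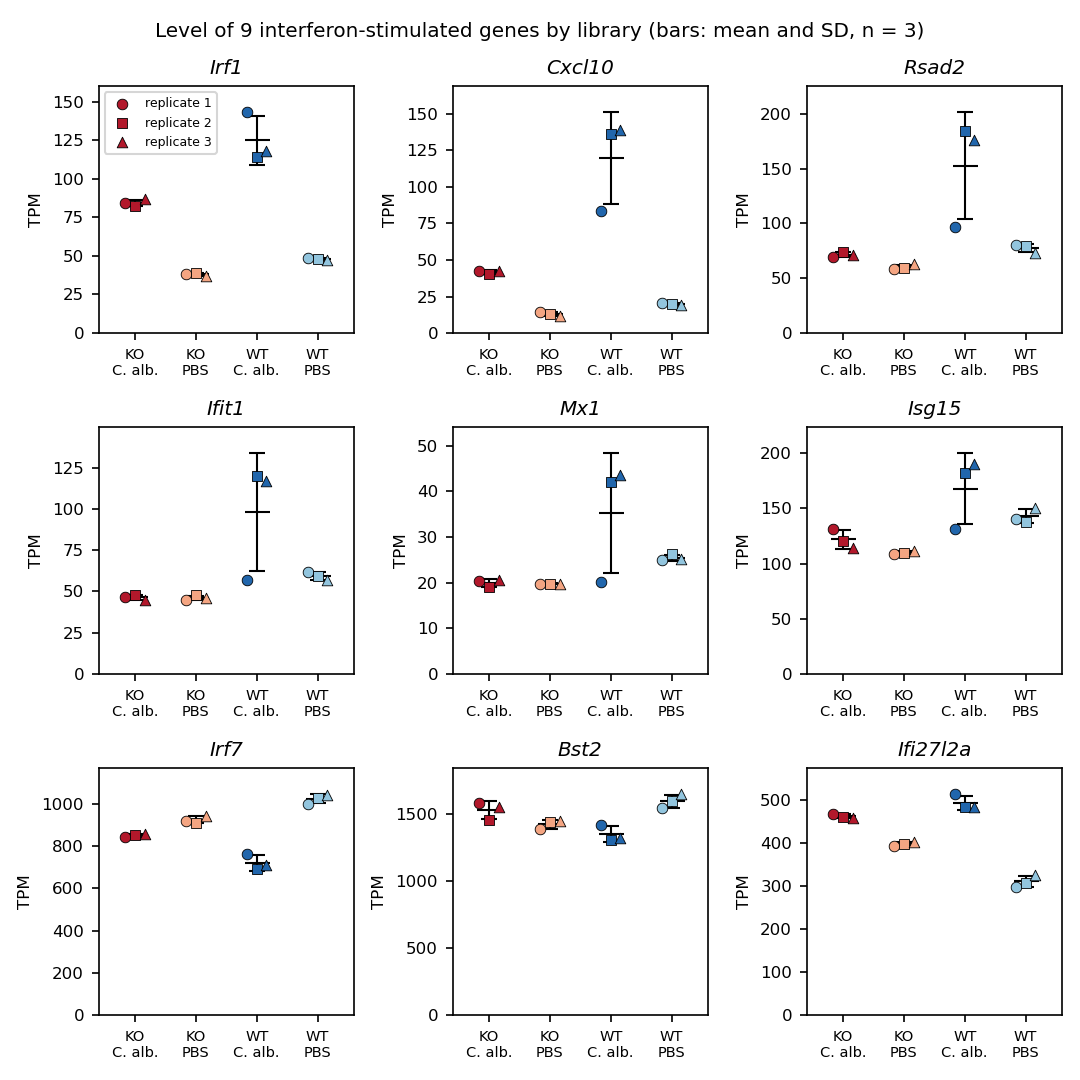
TPM of 9 interferon-stimulated genes in each library (circle for replicate 1, square for 2, triangle for 3), with bars at the mean and SD of 3, for KO C. albicans, KO PBS, WT C. albicans and WT PBS; each panel has its own linear axis from 0. In WT C. albicans the point of replicate 1 lies apart below the other 2 for Cxcl10, Rsad2, Ifit1, Mx1 and Isg15, and above them for Irf1, Irf7, Bst2 and Ifi27l2a.

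WT C. albicans replicate 1 differed from its replicates for these genes more than any other library did. Its median gap to the mean of replicates 2 and 3 over the 47 genes was -0.25 on the log2(TPM + 1) scale, 37 of the 47 were below that mean, and 13 were below it by 0.5 or more. Over all genes the median gap of this library was 0.05, 37.3% were below and 3.11% were below by 0.5 or more. In each of the other 11 libraries, none of the 47 genes was 0.5 or more below the mean of its own 2 fellow replicates. WT C. albicans replicate 1 was already known to stand apart for these genes, so these counts describe its gap and do not test it. The largest gaps were those of Mx2 (-1.09), Ifit1 (-1.05), Mx1 (-1.05), Rsad2 (-0.90), Cmpk2 (-0.89) and Gbp5 (-0.87). Mx2 in replicate 1 was at 42.7% of the mean TPM of replicates 2 and 3, and Ifit1 at 47.9%, while Irf1 was 0.30 above on the log2 scale. This library held 18643783 reads in genes, close to the 18552916 of replicate 3, and limma's library weights gave it 0.223, the lowest of the 12.

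The 47 genes can be sorted by where each WT C. albicans library lay against the range of the 3 WT PBS libraries. In 7 genes (Cmpk2, Cxcl10, Gbp5, Ifi27l2a, Irf1, Parp14 and Rsad2) all 3 lay above it, while 18.3% of all genes tested showed this. In 15 genes replicates 2 and 3 lay above and replicate 1 below, against 1.51% of all genes tested, and these were Gbp3, Gbp7, Ifi47, Ifit1, Ifit2, Ifit3, Igtp, Irgm1, Isg15, Mx1, Mx2, Oasl1, Rtp4, Stat2 and Usp18. In 7 more, replicates 2 and 3 lay above and replicate 1 within the range, against 3.07% of all genes tested. In 12 genes all 3 lay below, against 32.6% of all genes tested, and 6 showed some other arrangement. That replicate 1 stands apart for these genes was known beforehand, so these counts describe the split and are no independent evidence of it. Measured as the median over the 47 genes of the difference from the WT PBS mean, replicate 1 was at -0.12, replicate 2 at 0.23 and replicate 3 at 0.20 on the log2 scale, where the medians over all genes were -0.04, -0.08 and -0.08. The 22 genes with an ISRE match had a median change of 0.29 in replicates 2 and 3 and of -0.08 in replicate 1, and the 15 without one had 0.00 and -0.13. Neutrophil markers, of which S100a9 and Ly6g were at 0, summed to between 6.34 and 8.14 TPM in WT cells with C. albicans and between 2.21 and 2.75 TPM in WT cells with PBS. Of these sums S100a8 alone had 5.72, 7.73 and 6.60 TPM with C. albicans and 1.01, 2.43 and 2.75 TPM with PBS. Lymphocyte markers, of which Cd3e was at 0 in every library, summed to between 0.262 and 0.516 TPM in WT cells with C. albicans and between 3.47 and 3.77 TPM in WT cells with PBS. The part of either in the response was not tested.

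**Figure D3:**
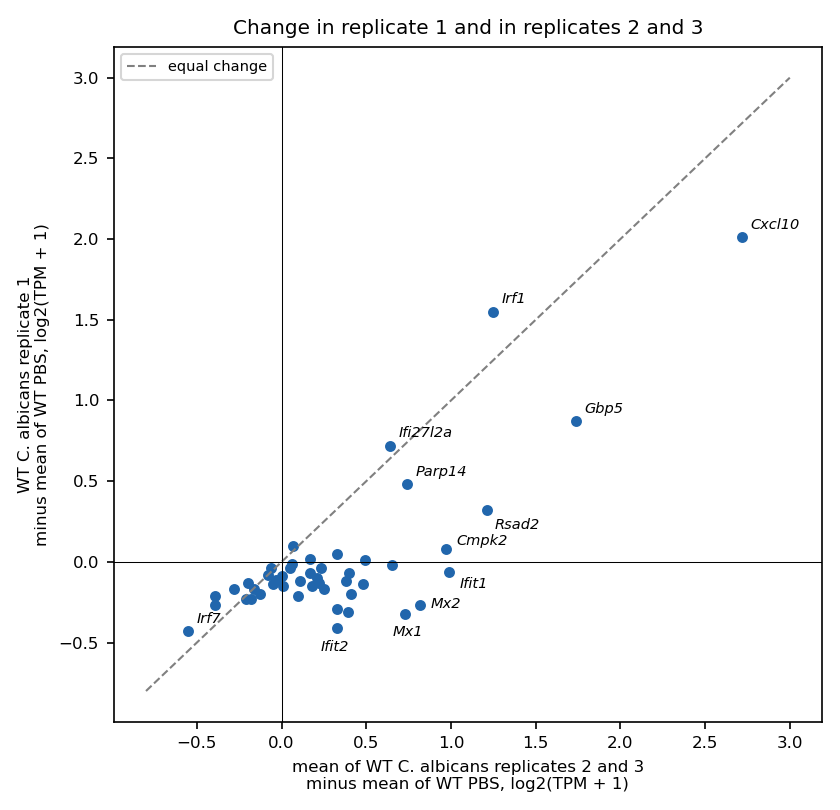
Difference from the WT PBS mean on the log2(TPM + 1) scale in WT C. albicans replicate 1 (y axis) against that in the mean of replicates 2 and 3 (x axis) for each of the 47 genes (points); the dashed line marks equal change. Of the 47 points 37 lie below the line, Mx2 by 1.09 and Ifit1 by 1.05, and Irf1 lies 0.30 above it.

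In Piezo1 KO macrophages C. albicans raised Cxcl10, Irf1, Parp14 and Ifi27l2a, the same 4 of the 11 genes that rose in WT cells, and lowered none of the 47. Of all genes tested 3.94% rose and 3.14% fell in this comparison, and the median log2 fold change was 0.01 for the 47 genes and -0.04 for all genes. With median-ratio factors 5 of the 47 rose and 0 fell, against 5.42% and 1.52% of all genes. The number that fell was 2 without WT C. albicans replicate 1 and 1 without WT C. albicans replicate 2, libraries that enter only the shared estimate of spread. In 11 of the 47 all 3 KO C. albicans libraries were above all 3 KO PBS libraries and in 8 all were below, against 11.9% and 21.1% of all genes. At an unadjusted limma p under 0.05, 4 of the 47 were lower, against 15.1% of all genes. Limma voom on recovered reads called 0 lower with median-ratio scaling and 1 with total-read scaling. Cxcl10 had 42.3, 40.4 and 42.7 TPM in KO cells with C. albicans and 14.4, 12.9 and 11.98 TPM in KO cells with PBS, and its log2 fold change was 1.61 (adjusted p = 1.2e-05, SE 0.15). Irf1 had 84.1, 82.7 and 86.7 TPM with C. albicans, against 38.5, 38.9 and 36.7 TPM with PBS, a log2 fold change of 1.13 (adjusted p = 1.64e-07, SE 0.07). For both genes the groups were far apart and the 3 C. albicans libraries close together. Parp14 had 73.9, 73.2 and 70.8 TPM in KO cells with C. albicans and 62.4, 54.4 and 60.7 TPM with PBS, a log2 fold change of 0.29 (adjusted p = 0.0206, SE 0.07). Its call was lost without any 1 of the KO C. albicans replicates, or KO PBS replicate 2 or 3 (adjusted p of 0.0501 to 0.0763). Ifi27l2a had 468, 459 and 459 TPM with C. albicans and 394, 397 and 403 TPM with PBS, a log2 fold change of 0.22 (adjusted p = 0.00182, SE 0.03).

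Of the 6 genes with the largest gap of WT C. albicans replicate 1, none passed the test of the response in KO cells, whereas Cxcl10, with a gap of -0.72, did. Ifit1 had 46.5, 47.96 and 45.05 TPM in KO cells with C. albicans and 44.9, 47.6 and 45.9 TPM with PBS, a log2 fold change of 0.01 (adjusted p = 0.983, SE 0.20). Mx2 had 5.37, 5.13 and 5.33 TPM with C. albicans and 6.17, 4.701 and 5.58 TPM with PBS, a log2 fold change of -0.04 (adjusted p = 0.94, SE 0.22). Cmpk2 had 27.97, 25.9 and 28.3 TPM with C. albicans and 28.1, 27.6 and 28.96 TPM with PBS, a log2 fold change of -0.04 (adjusted p = 0.92, SE 0.17). In these 3 genes the KO groups overlapped. Rsad2 and Gbp5 did not overlap, with log2 fold changes of 0.25 (adjusted p = 0.427, SE 0.17) and 0.56 (adjusted p = 0.124, SE 0.21). Both passed when WT C. albicans replicate 1, which is not part of this contrast, no longer entered the shared estimate of spread (adjusted p = 0.00247 and 0.0139). Measured from the WT PBS mean, the median of the 47 genes was -0.22, -0.23 and -0.21 in the KO C. albicans libraries and -0.20, -0.27 and -0.23 in the KO PBS libraries on the log2 scale. The medians over all genes were -0.13, -0.13 and -0.12 in the KO C. albicans libraries and -0.08, -0.10 and -0.08 in the KO PBS libraries.

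With PBS alone, 27 of the 47 genes were lower and 1 was higher in KO than in WT macrophages. Across all genes tested 26.1% were lower and 6.14% higher, and the median log2 fold change was -0.25 for the 47 genes and -0.08 for all genes. This count depended on scaling: with median-ratio factors 9 were lower and 4 higher, against 14.1% and 14.2% of all genes, and 13 were lower and 1 higher once the trend with gene length was removed, against 7.09% and 7.37%. All 4 transcription factors were lower, Irf1 with 38.5, 38.9 and 36.7 TPM in KO cells and 48.5, 48.3 and 47.5 TPM in WT cells, a log2 fold change of -0.33 (adjusted p = 0.00254, SE 0.07). Irf7 had 921, 909.8 and 945 TPM in KO cells with PBS and 1000.2, 1028 and 1042 TPM in WT cells with PBS, a log2 fold change of -0.15 (adjusted p = 0.00599, SE 0.03) that was not past the threshold with median-ratio factors. Irf9 had 99.98, 97.2 and 100.2 TPM in KO cells with PBS, against 114, 107 and 109 TPM in WT cells with PBS, a log2 fold change of -0.15 (adjusted p = 0.00767, SE 0.04), and Stat2 had 57.95, 54.6 and 57.8 TPM, against 68.6, 66.3 and 68.9 TPM in WT cells, a log2 fold change of -0.26 (adjusted p = 0.0238, SE 0.08). Both calls were lost with median-ratio factors (adjusted p = 0.372 and 0.188), and that of Stat2 also without WT PBS replicate 1 or 3 or KO PBS replicate 2. In all 4 genes every KO library was below every WT library.

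Of the 20 antiviral effectors 11 were lower in KO cells with PBS and none was higher, of the 8 GTPases 4 were lower, of the 5 sensors 3, and of the 2 genes of ISG15 conjugation and removal 1, Herc6, which joins ISG15 to proteins in mouse cells. With median-ratio factors 4 of the effectors (Eif2ak2, Ifit2, Oas2 and Samhd1) were lower and Oas1a was higher, and 0 of the GTPases, 1 of the sensors (Dhx58), 1 of the transcription factors (Irf1) and not Herc6 were lower. Of all genes tested 26.1% were lower and 6.14% higher as deposited, and 14.1% and 14.2% with median-ratio factors. Ifit2, a relative of Ifit1, showed the largest fall of the 47 at -0.72 (adjusted p = 0.00271, SE 0.15). Oas2 had 65.2, 58.2 and 65.4 TPM in KO cells with PBS, against 79.4, 75.6 and 80.1 TPM in WT cells with PBS, a log2 fold change of -0.31 (adjusted p = 0.000396, SE 0.05). Samhd1 had 172, 169 and 172 TPM in KO cells and 206, 206 and 197 TPM in WT cells, a log2 fold change of -0.25 (adjusted p = 0.000343, SE 0.04). Neither gene's groups overlapped. Isg15 had 108, 109.8 and 112 TPM in KO cells with PBS, against 140.4, 138 and 149.9 TPM in WT cells with PBS, a log2 fold change of -0.37 (adjusted p = 0.0165, SE 0.11), which was not past the threshold without WT PBS replicate 3 (adjusted p = 0.0558) or with median-ratio factors (adjusted p = 0.094). Parp14 had 62.4, 54.4 and 60.7 TPM in KO cells with PBS and 82.6, 81.4 and 77.4 TPM in WT cells with PBS, a log2 fold change of -0.44 (adjusted p = 0.00041, SE 0.07), which was not past the threshold once the length trend was removed (adjusted p = 0.0648, and 0.125 for Samhd1). Cxcl10 had 14.4, 12.9 and 11.98 TPM and 20.9, 19.8 and 19.4 TPM in the same groups, with -0.58 (adjusted p = 0.00926, SE 0.15). The Cxcl10 call was lost with limma voom on recovered reads (adjusted p = 0.218, or 0.178 with total-read scaling).

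Ifi27l2a was the 1 gene of the 47 higher in KO cells with PBS, and with median-ratio factors Lgals3bp, Oas1a and Xaf1 were higher too. It had 394, 397 and 403 TPM in KO cells with PBS, against 298, 308 and 325 TPM in WT cells with PBS, a log2 fold change of 0.36 (adjusted p = 1.63e-05, SE 0.03). In 37 of the 47 genes all 3 KO PBS libraries were below all 3 WT PBS libraries, and in 2 all were above, against 36.1% and 10.1% of all genes tested. Genes that did not pass here included Mx1 (-0.35), Mx2 (-0.33), Ifit1 (-0.35) and Rsad2 (-0.36), and all 4 passed with unchanged log2 fold changes when WT C. albicans replicate 1 was out of the shared estimate of spread. Without that library 38 of the 47 were lower with PBS and 1 higher, against 29.8% and 7.67% of all genes. Without WT PBS replicate 1, 21 were lower and 1 higher, while 25.5% of all genes were called in either direction. Sums of markers of other cell types differed between the same groups. Those of plasmacytoid dendritic cells were between 19.9 and 21.9 TPM in KO cells with PBS and between 25.6 and 28.3 TPM in WT cells with PBS. Of these sums Tcf4 alone had 21.5, 19.5 and 20.9 TPM in KO cells and 27.8, 26.6 and 25.4 TPM in WT cells. Ccr9 was slightly higher in KO cells, at 0.244 TPM or less in both groups, Siglech and Pacsin1 overlapped and Klk1 was at 0. Lymphocyte markers summed to between 1.02 and 1.505 TPM in KO and between 3.47 and 3.77 TPM in WT cells. Neutrophil markers summed to between 4.19 and 5.63 TPM in KO and between 2.21 and 2.75 TPM in WT cells. Of the neutrophil sums S100a8 alone had 3.94, 4.10 and 5.49 TPM in KO cells with PBS and 1.01, 2.43 and 2.75 TPM in WT cells with PBS. The part of these markers in the knockout effect was not tested.

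With C. albicans, 31 of the 47 genes were lower and 3 were higher in KO than in WT macrophages, against 27.5% and 12.4% of all genes tested. The median log2 fold change was -0.33 for the 47 genes and -0.05 for all genes. Median-ratio factors gave 24 lower and 4 higher, against 21.8% and 19.3% of all genes. Without WT C. albicans replicate 1, 33 were lower and 3 higher, against 26.1% and 15.5% of all genes. Without replicate 2 or without replicate 3 of that group, 23 were lower and 3 higher in each case. Of all genes, 33.3% and 34.9% were then called in either direction. Every one of the 8 GTPases except Ifi47 was lower, as were 12 of the 20 antiviral effectors, 4 of the 5 sensors and 3 of the 4 transcription factors. With median-ratio factors 5 of the GTPases, 12 of the effectors, 2 of the sensors and 2 of the transcription factors were lower. In 29 of the 47 genes all 3 KO C. albicans libraries were below all 3 WT C. albicans libraries, and in 4 all were above, against 33.3% and 16% of all genes tested. With C. albicans the plasmacytoid dendritic cell markers summed to between 22.8 and 23.8 TPM in KO cells and between 25.6 and 28.0 TPM in WT cells. Tcf4 made up nearly all of these sums, with 22.6, 23.2 and 23.2 TPM in KO cells and 27.8, 25.6 and 25.2 TPM in WT cells. Markers of neutrophils, mostly S100a8, summed to between 3.06 and 5.26 TPM in KO cells and between 6.34 and 8.14 TPM in WT cells. Those of lymphocytes summed to between 0.857 and 1.43 TPM in KO cells and between 0.262 and 0.516 TPM in WT cells. The part of these markers was not tested.

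The largest falls were in Cxcl10 and Gbp5. Cxcl10 had 42.3, 40.4 and 42.7 TPM in KO cells with C. albicans, against 83.5, 136 and 139 TPM in WT cells with C. albicans, and its log2 fold change was -1.46 (adjusted p = 8.86e-06, SE 0.15). Its mean in the KO was 34.9% of that in WT, and 50.1% of the value in WT replicate 1 alone. Gbp5 had 6.91, 6.22 and 7.31 TPM in KO cells and 13.2, 24.3 and 25.8 TPM in WT cells with C. albicans, a log2 fold change of -1.45 (adjusted p = 0.000129, SE 0.21). Parp14 had 73.9, 73.2 and 70.8 TPM in KO cells, against 113, 134 and 135 TPM in WT cells with C. albicans, a log2 fold change of -0.80 (adjusted p = 2.35e-06, SE 0.07), and Irf1 had 84.1, 82.7 and 86.7 TPM, against 143, 114 and 118 TPM in WT cells, with -0.55 (adjusted p = 4.17e-05, SE 0.07). All 4 stood below even the lowest WT C. albicans library.

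Rsad2 had 69.5, 73.8 and 71.4 TPM in KO cells with C. albicans and 96.5, 185 and 176 TPM in WT cells with C. albicans, a log2 fold change of -1.02 (adjusted p = 0.000507, SE 0.17). Ifit1 had 46.5, 47.96 and 45.05 TPM in KO cells and 56.7, 120.1 and 117 TPM in WT cells with C. albicans, a log2 fold change of -0.98 (adjusted p = 0.00192, SE 0.20). Cmpk2 had a mean of 27.4 ± 1.31 TPM in KO cells with C. albicans, against 52.00 ± 16.6 TPM in WT cells with C. albicans (SD, n = 3 each), a log2 fold change of -0.84 (adjusted p = 0.0019, SE 0.17). WT replicate 1 lay close to the KO libraries in these genes: the KO mean was 74.2% of it for Rsad2, 82.0% for Ifit1 and 83.4% for Cmpk2, though no KO library reached it. Mx2 had 5.37, 5.13 and 5.33 TPM in KO cells and 5.72, 12.2 and 14.6 TPM in WT cells with C. albicans, a log2 fold change of -0.83 (adjusted p = 0.0103, SE 0.22), and its KO mean was 92.2% of WT replicate 1. Mx1 had 20.4, 19.02 and 20.6 TPM in KO cells and 20.2, 42.04 and 43.5 TPM in WT cells with C. albicans, a log2 fold change of -0.71 (adjusted p = 0.0132, SE 0.20), and its KO mean was 99.0% of WT replicate 1. The KO and WT groups overlapped for Mx1, whose call was lost without WT C. albicans replicate 2 or 3 (adjusted p = 0.0606 and 0.059).

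Isg15 had 131, 120.4 and 114 TPM in KO cells with C. albicans, against 132, 182 and 189.9 TPM in WT cells with C. albicans, a log2 fold change of -0.44 (adjusted p = 0.00506, SE 0.11). Stat2 had 54.5, 55.1 and 58.8 TPM in KO cells and 61.8, 79.8 and 78.6 TPM in WT cells with C. albicans, a log2 fold change of -0.37 (adjusted p = 0.00213, SE 0.08), and Oas2 had 64.2, 60.6 and 64.6 TPM and 74.2, 73.5 and 74.5 TPM in the same groups, with -0.23 (adjusted p = 0.00232, SE 0.05). No KO library of these 3 genes reached a WT library. Irf9 was lower by less, with 98.9, 99.3 and 101 TPM in KO cells and 103, 109 and 110.4 TPM in WT cells with C. albicans and a log2 fold change of -0.11 (adjusted p = 0.0322, SE 0.04), and its call was lost with median-ratio factors (adjusted p = 0.377) and without any 1 of WT C. albicans replicates 2 and 3 and KO C. albicans replicates 1, 2 and 3 (adjusted p of 0.052 to 0.117).

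The 3 genes that were higher in KO cells with C. albicans were Irf7, Bst2 and Lgals3bp. Irf7 had 841, 851 and 859 TPM in KO cells with C. albicans, against 762, 690.1 and 712 TPM in WT cells with C. albicans, a log2 fold change of 0.24 (adjusted p = 0.000139, SE 0.03). Bst2 had 1581, 1456 and 1553 TPM in KO cells and 1416, 1308 and 1319 TPM in WT cells with C. albicans, a log2 fold change of 0.18 (adjusted p = 0.00243, SE 0.04). Lgals3bp, a secreted glycoprotein, had a mean of 1336 ± 4.27 TPM in KO cells, against 1235 ± 33.4 TPM in WT cells with C. albicans (SD, n = 3 each), a log2 fold change of 0.11 (adjusted p = 0.01, SE 0.03). None of the 3 overlapped between groups. Across both treatments 19 of the 47 genes were lower in KO cells in each, against 16% of all genes, and with median-ratio factors 6 were, against 8.98% of all genes. With values as deposited, 2 others (Irf7 and Bst2) were lower with PBS and higher with C. albicans, and 1 (Ifi27l2a) was higher with PBS and lower with C. albicans, where it had 468, 459 and 459 TPM in KO cells and 512, 484 and 484 TPM in WT cells. That last call, at -0.10 (adjusted p = 0.0433, SE 0.03), was lost with median-ratio factors (adjusted p = 0.459) and without WT C. albicans replicate 1 (adjusted p = 0.113), and the PBS calls of Irf7 and Bst2 were lost with median-ratio factors (adjusted p = 0.279 and 0.239).

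**Figure D4:**
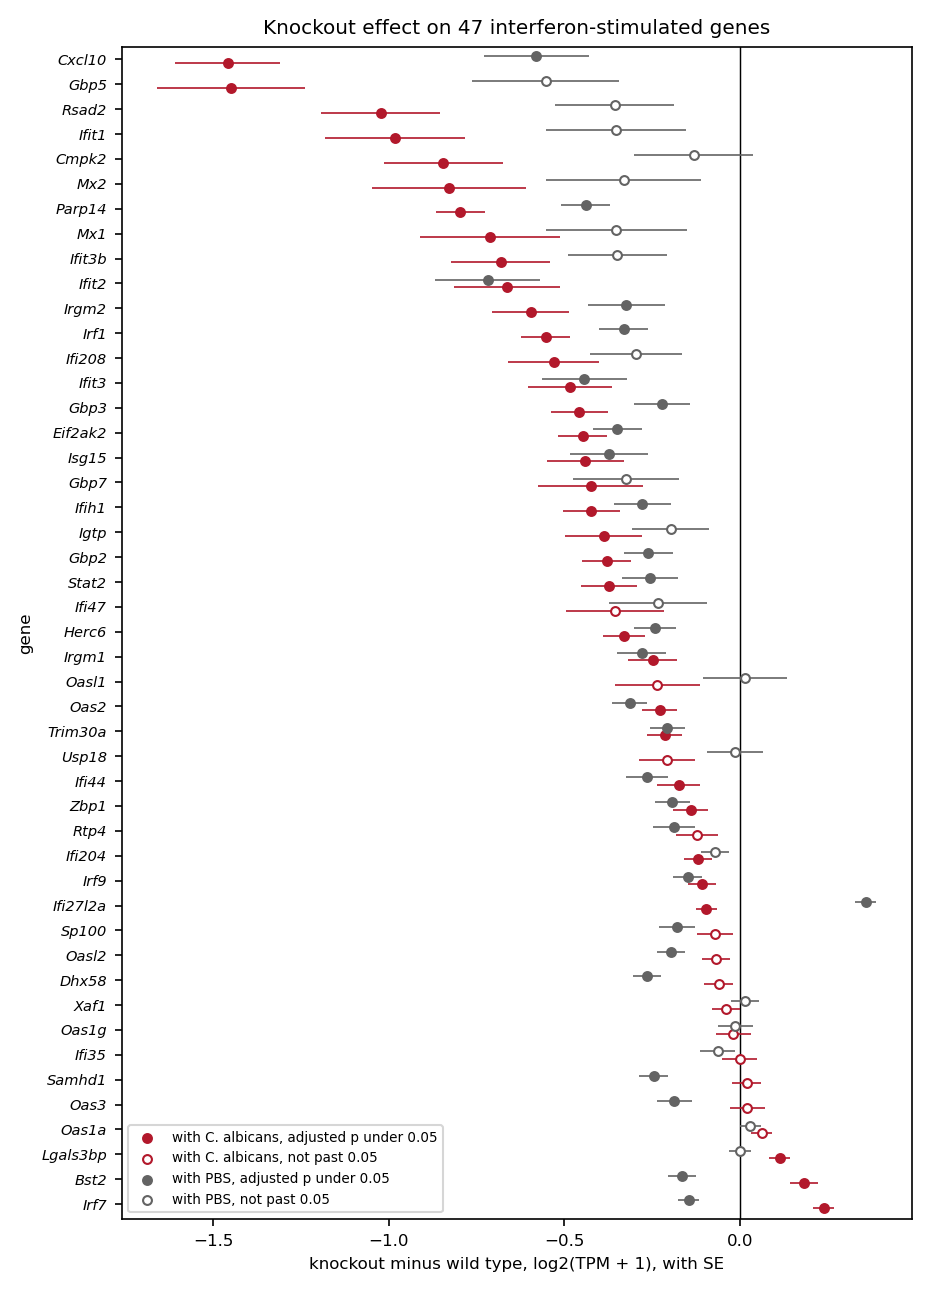
Log2 fold change of KO over WT, with its standard error, for each of the 47 genes with C. albicans and with PBS, ordered by the value with C. albicans; filled points passed an adjusted p of 0.05. Cxcl10 (-1.46), Gbp5 (-1.45) and Rsad2 (-1.02) lie farthest below 0 with C. albicans, and Irf7, Bst2 and Lgals3bp lie above 0.

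Whether the response itself differed between genotypes was tested by the response in KO minus that in WT cells. Of the 47 genes 4 had a higher response in KO cells, Irf7, Bst2, Samhd1 and Dhx58, and 3 a lower one, Cxcl10, Ifi27l2a and Parp14, against 7.52% and 6.33% of all genes tested. The median difference was -0.09 for the 47 genes and 0.02 for all genes. For Cxcl10 the log2 response was 1.61 in KO cells and 2.49 in WT cells, a difference of -0.88 (adjusted p = 0.0146, SE 0.21). For Ifi27l2a it was 0.22 in KO cells and 0.67 in WT cells, a difference of -0.45 (adjusted p = 9.07e-05, SE 0.05), and for Parp14 0.29 and 0.65, a difference of -0.36 (adjusted p = 0.0273, SE 0.10). All 3 genes rose in both genotypes, by less in the KO. The Cxcl10 difference was not past the threshold with limma voom on recovered reads (adjusted p = 0.0559, or 0.0591 with total-read scaling). With median-ratio factors 3 genes had a higher and 3 a lower response in KO cells, against 5.88% and 8.38% of all genes.

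The 4 genes with a positive difference had fallen in WT cells and did not pass the test in KO cells. Irf7 had a log2 response of -0.12 in KO cells and -0.51 in WT cells, a difference of 0.38 (adjusted p = 0.000272, SE 0.05). Bst2 had 0.10 in KO cells and -0.24 in WT cells, a difference of 0.35 (adjusted p = 0.00135, SE 0.06). Samhd1, with 161, 163 and 159.7 TPM in KO cells with C. albicans, had -0.08 in KO cells and -0.35 in WT cells, a difference of 0.26 (adjusted p = 0.00522, SE 0.05). Dhx58 had a difference of 0.20 (adjusted p = 0.0465, SE 0.06), which was lost with median-ratio factors (adjusted p = 0.111) and without any 1 of 10 libraries. The Parp14 difference was lost without WT C. albicans replicate 2 or 3, WT PBS replicate 3, KO C. albicans replicate 2 or 3, or KO PBS replicate 1 or 3 (adjusted p of 0.0527 to 0.072).

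Without WT C. albicans replicate 1 the number of genes with a lower response in the KO was 19 in place of 3, and that with a higher response 6 in place of 4, against 9.39% and 13% of all genes. The 19 included Ifit1 (-0.98 (adjusted p = 3.95e-07, SE 0.06)), Cmpk2 (-1.01 (adjusted p = 9.72e-07, SE 0.07)), Rsad2 (-0.96 (adjusted p = 6.14e-07, SE 0.06)), Mx2 (-0.86 (adjusted p = 0.000625, SE 0.13)) and Gbp5 (-1.19 (adjusted p = 0.000776, SE 0.19)). Over all libraries the same differences were -0.63 (adjusted p = 0.171, SE 0.29), -0.71 (adjusted p = 0.0723, SE 0.24), -0.67 (adjusted p = 0.0931, SE 0.25), -0.50 (adjusted p = 0.34, SE 0.32) and -0.90 (adjusted p = 0.059, SE 0.29). The differences of these 5 genes were negative with and without the library, and the SE was smaller without it. The library was left out because it stood apart for these genes, so the smaller SE and adjusted p follow in part from that choice.

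**Figure D5:**
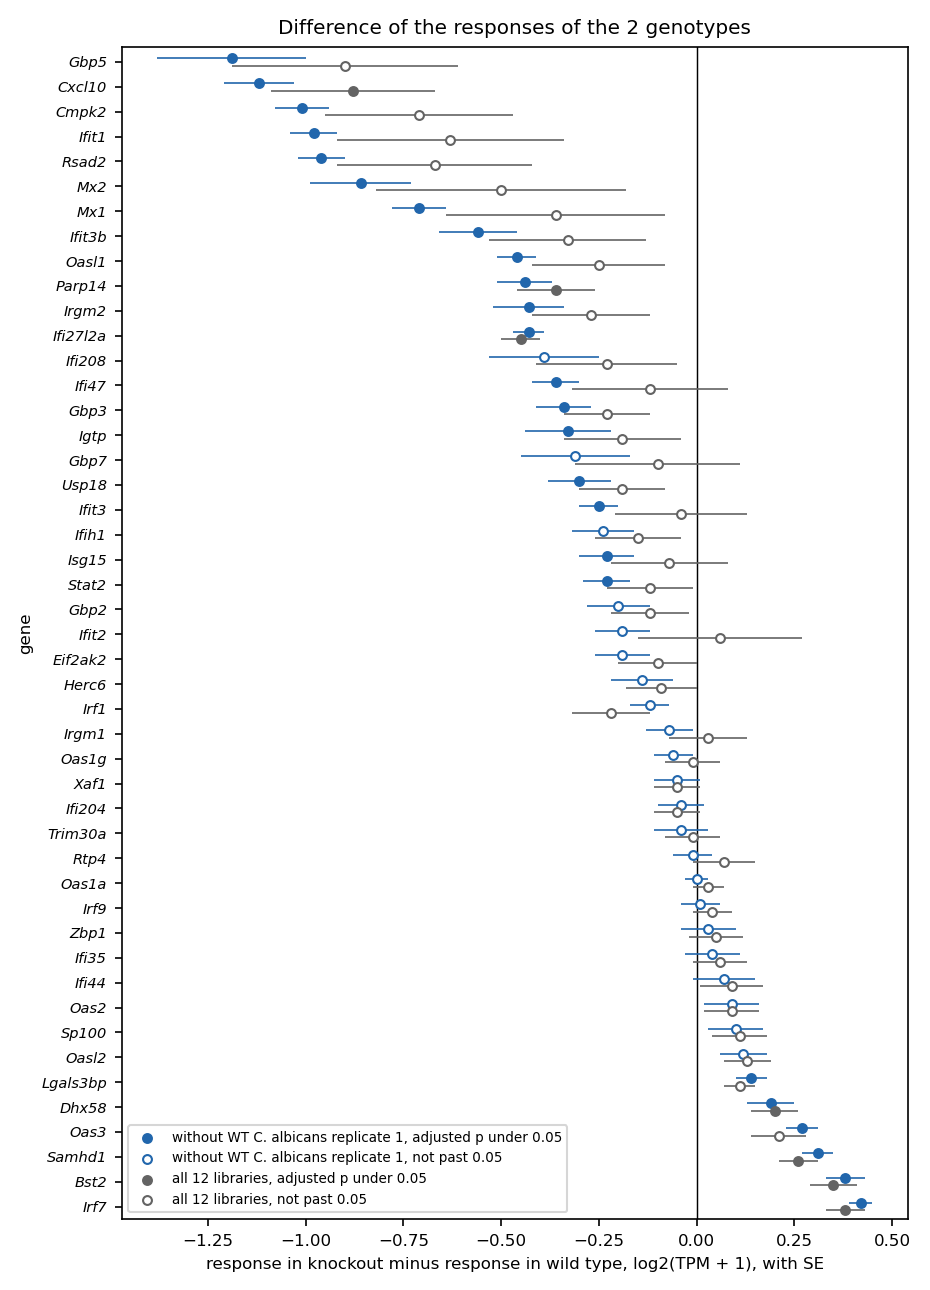
Response in KO minus response in WT on the log2 scale, with its standard error, for each of the 47 genes over all 12 libraries and without WT C. albicans replicate 1. Filled points passed an adjusted p of 0.05: 4 above and 3 below 0 with all libraries, and 6 above and 19 below 0 without replicate 1.

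Of 16 interferon ligand genes listed, Ifnb1 alone reached 1 TPM in 3 libraries. Ifnb1, the gene of interferon beta, had 6, 7 and 1 recovered reads in KO cells with C. albicans and 0, 1 and 0 in KO cells with PBS, against 9, 15 and 17 in WT cells with C. albicans and 4, 1 and 3 in WT cells with PBS. The part of Ifnb1 in the levels of the 47 genes was not tested. Ifnb1 reached 1 TPM only in the 3 WT C. albicans libraries (1.46, 1.97 and 2.72 TPM), so it passed the filter through that group alone. A test of that group against another is therefore no independent evidence, and fold changes alone are given. On counts this small, the log2 fold change of Ifnb1 was 1.07 for the response in WT cells and -0.96 for the knockout effect with C. albicans. Of the 5 receptor chains tested, Ifnar1, Ifngr1 and Ifngr2 rose with C. albicans in WT cells, and Ifnar1 in KO cells too (0.24 in KO and 0.36 in WT cells on the log2 scale). The same 3 were lower in KO than in WT cells with C. albicans. With median-ratio factors 3 of the 5 rose in KO cells, and 2 were lower and 1 higher in KO than in WT cells with C. albicans. Of all genes tested 16.1% rose in WT cells, 3.94% rose in KO cells and 27.5% were lower in KO cells with C. albicans. With median-ratio factors 5.42% rose in KO cells, and 21.8% were lower and 19.3% higher with C. albicans. Among the receptor kinases and STATs, Jak2 rose in WT cells by 0.80 and had 0.18 in KO cells, a difference of -0.62 (adjusted p = 0.032, SE 0.17), while Stat3 fell in WT cells (-0.36).

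Of 17 tested sensors, adaptors, kinases and factors upstream of interferon, 7 rose and 3 fell with C. albicans in WT cells, 3 rose and 0 fell in KO cells, 12 were lower in KO cells with PBS, and 3 were higher and 11 lower in KO cells with C. albicans. The shares of all genes tested were 16.1% and 28.3% for the response in WT cells, 3.94% and 3.14% for that in KO cells, 26.1% lower with PBS, and 12.4% and 27.5% with C. albicans. With median-ratio factors 6 of the 17 were lower in KO cells with PBS, against 14.1% of all genes, and 10 with C. albicans. Traf3, an adaptor of interferon induction, had a log2 response of 0.43 in KO cells and 0.89 in WT cells, a difference of -0.47 (adjusted p = 0.00563, SE 0.09). Ikbke, a kinase that activates IRF3 and IRF7, had 0.28 in KO cells and 0.69 in WT cells, a difference of -0.41 (adjusted p = 0.0266, SE 0.11). Of 8 tested inhibitors of interferon signalling, Socs3, an inhibitor of JAK kinases, rose by 2.97 in KO cells and 3.80 in WT cells, and Usp18 and Socs1, which act on the type I and type II receptors, did not pass in WT cells (0.07 and 0.07).

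Ifi35, Ifi47, Oas1g, Oasl1, Usp18 and Xaf1 were the 6 of the 47 genes that passed the test in none of the 5 comparisons. Usp18, which removes ISG15 from proteins, averaged 91.5 ± 5.98 TPM in KO cells with C. albicans and 99.5 ± 5.67 TPM in KO cells with PBS, against 106 ± 13.7 TPM in WT cells with C. albicans and 100.4 ± 3.46 TPM in WT cells with PBS (SD, n = 3 each). Ifi47, an immunity-related GTPase, averaged 34.4 ± 0.978 TPM in KO cells with C. albicans and 33.5 ± 0.371 TPM in KO cells with PBS, against 45.4 ± 11.8 TPM in WT cells with C. albicans and 39.5 ± 1.66 TPM in WT cells with PBS (SD, n = 3 each). Both had their widest spread in WT cells with C. albicans. The 19 genes lower in KO cells with each of the treatments were Stat2, Irf1, Irf9, Ifih1, Zbp1, Isg15, Ifit2, Ifit3, Oas2, Eif2ak2, Trim30a, Gbp2, Gbp3, Irgm1, Irgm2, Herc6, Cxcl10, Ifi44 and Parp14, of which Cxcl10, Eif2ak2, Ifit2, Irf1, Oas2 and Parp14 were lower with both under median-ratio factors. Those lower with PBS that did not pass with C. albicans were Dhx58, Oas3, Oasl2, Samhd1, Rtp4 and Sp100, and 11 were lower with C. albicans and did not pass with PBS, namely Ifi204, Ifi208, Ifit1, Ifit3b, Mx1, Mx2, Rsad2, Cmpk2, Gbp5, Gbp7 and Igtp.

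Several of the 47 genes lie in clusters or overlap other genes, so that reads may be shared. The genes Ifit2, Ifit3, Ifit3b and Ifit1 lie in that order on chromosome 19 of mm10, Gbp5, Gbp7, Gbp3 and Gbp2 on chromosome 3, and Rsad2 (26442743 to 26456452) and Cmpk2 (26469117 to 26479837) next to each other on chromosome 12. Mx1 and Mx2 lie on chromosome 16, and the 6 genes of the OAS family on chromosome 5. Values of Ifit3 and Ifit3b, of Oas1a and Oas1g, and of Igtp and Irgm2 rest on near-identical or similar sequence, and the sources used here do not say how reads that match several genes were assigned. By their annotated spans 8 of the 47 overlap another gene in the table, namely Stat2, Ifit1, Ifit3b, Eif2ak2, Rtp4, Gbp2, Cxcl10 and Ifi27l2a. These values are uncertain to that extent, and without a stated strand setting reads of overlapping genes cannot be told apart. In bulk RNA, fewer cells making a transcript and less transcript per cell also cannot be told apart.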

How the data were processed

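RNA levels of marrow-grown mouse macrophages were measured in 12 libraries, grouped by the genotype and treatment labels. The tools STAR 2.7.5a, cutadapt 2.6, DESeq2 1.34.0 and CASAVA 1.8 and the build mm10 are named per the submitters' processing notes, while no read counter, strand setting or annotation is named in the sources used here. The authors deposited TPM per gene and library, each column summing to 1000000. Per the file headers the same table holds DESeq2 columns of 1 comparison: a mean normalised signal, a log2 fold change, its standard error and a Wald score, and p-values, all deposited by the authors. By its values this comparison is WT C. albicans over WT PBS (median gap of 0.000946 on the log2 scale over 9298 genes). Whole reads were recovered from the TPM and the mean signal, with 100% of 124664 values under 1000 reads within 0.05 of a whole number. Rows with no gene symbol, 28 in all, took 0.00132% of reads.

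Genes at 1 TPM or more in 3 libraries, 11283 in all, were tested with limma 3.58.1 in R 4.3.3 (variance trend on, robust estimation off) on log2(TPM + 1). The model had a mean for each of the 4 groups over 12 libraries, and 8 residual degrees of freedom. P-values are two-sided and adjusted by Benjamini-Hochberg within each comparison. Fold changes on this scale understate the change of low genes. A value of the 47 genes rests on 92 reads or more. The script was tested on simulated data. The members and gene lists were chosen with earlier results of these data known. Values in each library are given for Irf1, Irf7, Irf9, Stat2, Cxcl10, Isg15, the 4 genes with the smallest adjusted p in each comparison and the 6 with the largest gap of WT C. albicans replicate 1, 17 in all. Promoters came from the RefSeq table on GRCm38.p6, the assembly mm10 names. Alternatives are given in the closing section.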

Additional observations from a re-analysis of the deposited data

Results flagged for a closer look

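For 7 of the 47 genes the response to C. albicans differed between genotypes by limma's test of the difference itself (adjusted p under 0.05). On the log2 scale the response in KO minus that in WT cells was -0.88 for Cxcl10, -0.45 for Ifi27l2a and -0.36 for Parp14. It was 0.38 for Irf7, 0.35 for Bst2, 0.26 for Samhd1 and 0.20 for Dhx58. Over all genes tested, 7.52% had a higher and 6.33% a lower response in KO cells, and the counts of 4 higher and 3 lower among the 47 were near those shares. The Dhx58 and Parp14 differences were lost when some single libraries were left out. That of Cxcl10 was lost with limma voom on recovered reads (adjusted p = 0.0559, or 0.0591 with total-read scaling). The KO PBS libraries in this contrast carry DMSO in their titles.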

How the results depend on the processing

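Pseudocount 0.1 TPM, no filter on low values and the variance trend turned off left each count of genes called within 1.5 times that reported. Of 11 genes raised in WT cells, library weights gave 26, the 6 libraries of the contrast alone 7, limma voom on recovered reads 20 and the authors' deposited test 18, and leaving out 1 library gave 7 to 28 (28 without WT C. albicans replicate 1). Of 10 lowered in WT cells, voom and the authors' deposited test each gave 6. Oas1a, lowered in WT cells at -0.08, was at 0 by both. Of 4 raised in KO cells, own libraries gave 7; of 0 lowered there, library weights gave 4, own libraries 2, voom with total-read scaling 1 and leaving out 1 library 0 to 2. With PBS, 1 higher in KO cells became 4 with median-ratio factors, 3 with voom and 2 with voom and total-read scaling, and 27 lower became 9, 9 and 15 in that order and 13 with the length trend removed. With C. albicans, 3 higher in KO cells became 5 with the length trend removed and 5 with voom and total-read scaling. Leaving out 1 library gave 21 to 38 lower in KO cells with PBS, and 23 to 33 with C. albicans. Of 3 genes with a lower response in KO cells, library weights gave 17 and leaving out 1 library 2 to 19. Calls over all genes, in either direction, moved too. They were 44.4% (WT response), 7.08% (KO response) and 13.9% (difference) in the main fit, and 53.9%, 17.7% and 26.7% with library weights. Own libraries gave 35.8% and 12% for the WT and KO responses, and voom gave 41.9%, 9% and 17% for all 3. For the knockout effect with PBS they were 32.3% in the main fit and 29% with voom. The causes were not tested. The share of calls over all genes that were higher was 55.5% with median-ratio factors and 36.2% without for the WT response, 78.0% and 55.7% for the KO response, 50.2% and 19.0% for the knockout effect with PBS and 41.2% and 54.3% for the difference of responses, while the median of all genes moved by at most 0.09. Same-numbered replicates did not pair: their deviations correlated at -0.09 to 0.09 in 18 pairs, 0 of them over 0.1. With a replicate block the counts were 11 and 9 (WT response, higher and lower), 4 and 0 (KO response), 1 and 26 (PBS), 3 and 29 (C. albicans) and 3 and 3 (difference). The voom fits were chosen after seeing the data, and an edgeR test of recovered reads was not run because the deposited unit is TPM. Ifnb1, with 0 to 17 reads a library, is limited by depth.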
